A study of Homo sapiens with 4 samples.

Results

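Chromatin loops were examined at 9 genes of the epithelial-mesenchymal transition (EMT): the transcription factor genes SNAI1, SNAI2, ZEB1, ZEB2 and TWIST1, the mesenchymal genes VIM, CDH2 and FN1, and, on the epithelial side, CDH1. A loop belonged to a gene when at least 1 of its anchors overlapped the gene body extended by 20 kb on each side. Of 77275 loops called in 4 libraries, 152 met this rule, 134 at the 8 mesenchymal genes and 18 at CDH1, and all 9 genes had at least 1. When calls of different libraries were joined wherever both anchor midpoints lay within 20 kb, these loops formed 70 of 33552 loop sites.

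Arima-HiC, which ligates and counts DNA ends that lie close together in the nucleus, was done on MDA-MB-231, an established TNBC cell line that the labels give as WT and that is known for mesenchymal features. Cells received DMSO (vehicle) or 75 nM THZ1, a covalent CDK7 inhibitor (CDK7i), and were labeled as 48 h samples. Each condition had 2 libraries, which the labels call technical replicates and the study's methods describe as treatment in duplicate. Whether they came from separate cultures is not stated, so the spread between libraries, and every SD, SE and p below, may be technical only. The loop lists carry no expression, and the labeled cell type was therefore not checked against marker genes. The study asked whether CDK7i alters chromatin folding, and the comparison here asks how the loops at EMT genes differed between vehicle and THZ1.

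In EMT, the SNAI, ZEB and TWIST transcription factors repress CDH1, which encodes the adhesion protein E-cadherin, and cells gain vimentin (VIM), N-cadherin (CDH2) and fibronectin (FN1). A chromatin loop brings a pair of distant DNA stretches, its anchors, into frequent contact. Many loops form when cohesin extrudes DNA until it meets the protein CTCF bound at sites that point toward each other.

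The letters of a CTCF core site, CCA, any 2 bases, AG, any base and GGGC, were searched on both strands of GRCh37 at the anchors. Among 63 distinct loop positions at the 9 genes with anchors 5 kb wide, 2 had the letters at both anchors, at SNAI1 and at CDH1, and in both the letters pointed toward each other. Over all such positions of the series, 226 of 367 with a single orientation at each anchor (61.6%) were convergent. The letters were present in 6.67% of the 75 distinct anchors of 5 kb at the 9 genes. They were present in 9.64% of all 29472 anchors of that width, and in 3.2% of windows of that width spaced over the genome. At 10 kb width the same shares were 7.5%, 14.5% and 5.84%, and at 25 kb width they were 13.8%, 24.4% and 14.5%. The sequences of the anchors with convergent letters and of the anchor over the VIM start are given 5′ to 3′ on the strand of the match. The matched letters are in capitals.

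SNAI1 left anchor, chr20:48595687-48595716, plus strand, intergenic, 3801 bp before the SNAI1 start: gcgccttggCCAGCAGAGGGCgccagagga

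SNAI1 right anchor, chr20:48687971-48688000, minus strand, intergenic: cgcccttggCCAGCAGAGGGCgctagcgct

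CDH1 left anchor, chr16:68564924-68564953, plus strand, intron of ZFP90: atccagaccCCAAGAGAGGGCtcttggctg

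CDH1 right anchor, chr16:68877721-68877750, minus strand, intron of TANGO6: tcaaagcccCCAGCAGCGGGCggagggtcc

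VIM anchor, chr10:17272820-17272849, minus strand, 2580 bp after the VIM start in an exon of a VIM transcript: gtcttcccgCCACTAGAGGGCtttacgcgc

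Both SNAI1 anchors carried the same 12 matched letters. A match describes these letters only, and CTCF binding was not measured. Only this fixed pattern was searched, so an anchor without it was not shown to lack a CTCF site.

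The EMT genes had fewer loops in both THZ1 libraries than in either vehicle library. The vehicle libraries held 44 and 51 loops at the 9 genes (47.5 ± 4.95, SD, n = 2), and the THZ1 libraries held 27 and 30 (28.5 ± 2.12, SD, n = 2), which is 1.67-fold fewer. All loops of these libraries numbered 20768 and 24219 with vehicle, against 17222 and 15066 with THZ1, or 1.39-fold fewer. The groups did not overlap in either case, with p = 0.333 in the exact two-sided permutation test, the smallest p that 2 libraries against 2 allow. Loops at the 9 genes made up 0.212% and 0.211% of the vehicle calls and 0.157% and 0.199% of the THZ1 calls. The study's methods give a range of reads per sample without assigning a depth to each library, and the part of depth in the number of calls was not tested.

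Of the 9 genes, 6 had fewer loops in both THZ1 libraries than in either vehicle library (SNAI1, ZEB1, ZEB2, CDH2, FN1 and CDH1), and none had more. Among all 17022 protein-coding genes with a loop, 28.9% were lower in this way and 3.01% were higher. Among the 8185 genes with at least 10 loops summed over the libraries, 37.7% were lower. SNAI2, TWIST1 and VIM overlapped between conditions. The tally moved with the window. Without the extension, 5 genes were lower (all but FN1) and TWIST1 was higher (1 loop in each vehicle and 2 in each THZ1 library), and with an extension of 50 kb the same 5 were lower. Within 20 kb of the gene start alone, ZEB1, SNAI1, FN1 and CDH1 were lower and CDH2 was higher (no loop in the vehicle libraries and 1 in each THZ1 library). Vehicle calls joined to the same CDH2 site as the call of THZ1 replicate 1 had their anchor outside this window. Loops of the same gene often shared an anchor and were not independent of each other.

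**Figure D1:**
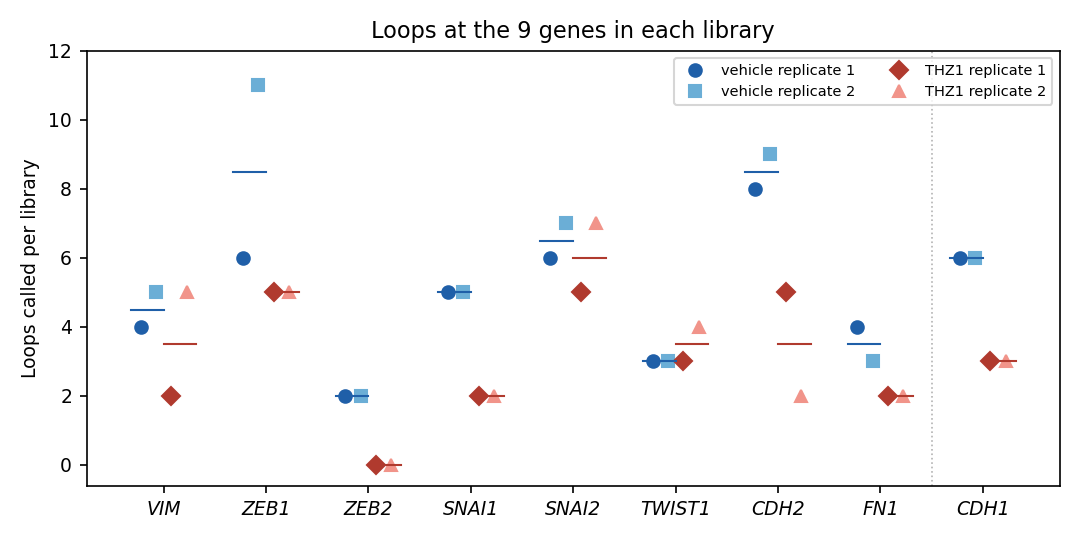
Number of loops called at each gene (y axis) in each of the 4 libraries (points), with the mean of each condition as a short line. The THZ1 libraries sit below both vehicle libraries at ZEB1, ZEB2, SNAI1, CDH2, FN1 and CDH1, and overlap them at VIM, SNAI2 and TWIST1.

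SNAI1 (chr20:48599517-48605423, plus strand) encodes Snail, a zinc finger repressor of CDH1. It had 5 loops in each vehicle library and 2 in each THZ1 library. Of its 14 calls, 13 had an anchor in the 25 kb bin chr20:48575001-48600000, which holds the gene start and the upstream CTCF letters. The 2 sites called in all 4 libraries ran from there to anchors 90 to 105 kb and 185 to 195 kb downstream.

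The shorter of these SNAI1 sites had convergent CTCF letters in the calls of vehicle replicate 2 and THZ1 replicate 1. The right anchors called in vehicle replicate 1 and THZ1 replicate 2 lacked the letters. The left anchor of the site was the same in all 4 libraries, while the right anchor lay at 48690001 and 48685001 with vehicle and at 48685001 and 48700001 with THZ1. The last of these overlapped UBE2V1, which encodes a ubiquitin-conjugating enzyme variant. Contacts observed over contacts expected from the surrounding donut of pixels (the observed/expected ratio, here the loop strength) were 7.94 and 10.3 with vehicle, against 9.77 and 4.74 with THZ1, so the groups overlapped.

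The remaining 3 SNAI1 sites appeared in the vehicle lists of both replicates and in no THZ1 list. They were a 35 kb loop from RNF114, which encodes a RING finger protein, to a stretch upstream of SNAI1 (ratio 3.44 and 3.01), a loop of 50 and 55 kb from the gene to a downstream anchor (3.17 and 2.8), and a 500 kb loop with 25 kb anchors (2.26 and 2.71). The 35 kb loop was also the only loop at the 9 genes in the tables of unique loops that the authors deposited, where it is listed for vehicle with 54 pooled contacts. The vehicle libraries held 28 and 26 contacts there.

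**Figure D2:**
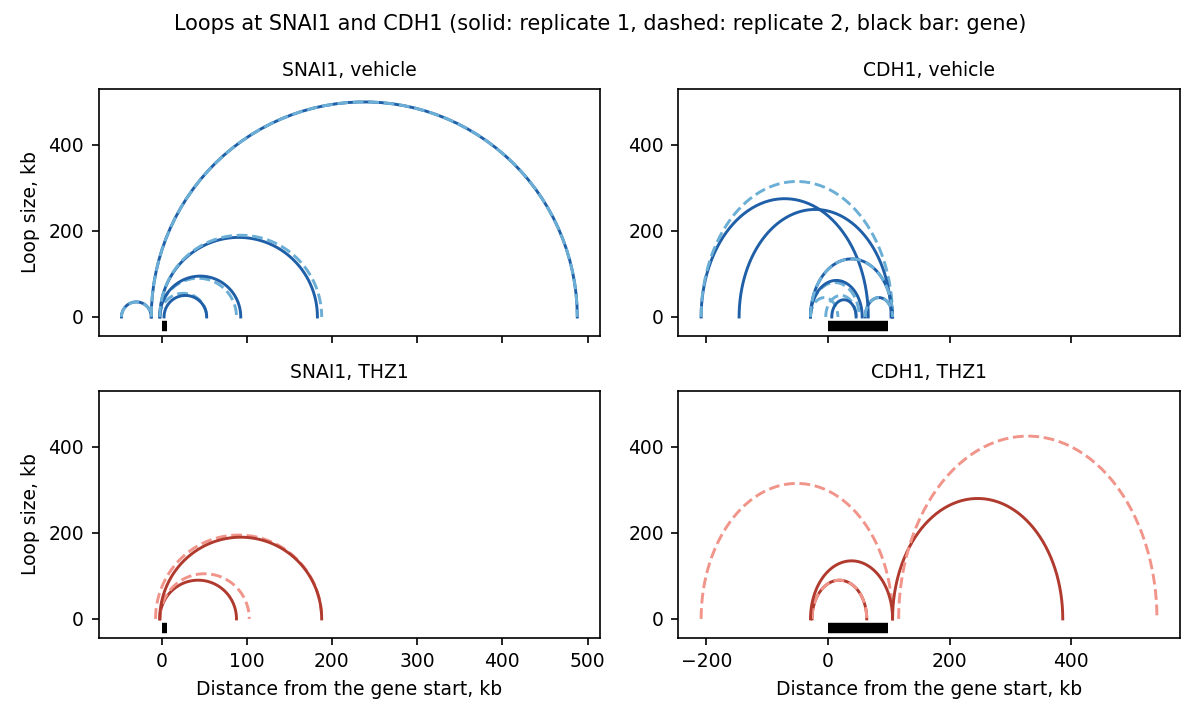
Loops at SNAI1 (left) and CDH1 (right) with vehicle (top) and THZ1 (bottom), drawn as arcs between anchor midpoints by distance from the gene start in kb (x axis), with the height of each arc giving the loop size in kb. At SNAI1, 5 arcs per vehicle library and 2 per THZ1 library are present. At CDH1, both THZ1 libraries have an arc to the right of the gene that no vehicle library has.

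SNAI2 (chr8:49830157-49834299, minus strand) encodes Slug, a relative of Snail. It had 6 and 7 loops with vehicle and 5 and 7 with THZ1, and all 25 calls had an anchor within 5 kb of the gene start. These loops formed a fan of 9 sites from the promoter to anchors 130 to 960 kb away, of which 4 were called in all 4 libraries. None was 90 kb or less.

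The strongest site of SNAI2, 600 to 605 kb in size, had a ratio of 17.4 and 18.6 with vehicle, against 8.89 and 13.7 with THZ1. Its contacts were 35 and 43 with vehicle, against 2.01 and 2.31 expected. With THZ1 they were 35 and 42, against 3.94 and 3.07 expected. Its right anchor started at 49830001 in THZ1 replicate 1 and at 49835001 in the other libraries. The next site, 510 to 515 kb in size, had a ratio of 9.49 and 10.7 with vehicle, against 4.75 and 9.15 with THZ1. Its right anchor started at 49835001 in vehicle replicate 1 and at 49830001 in the other libraries. The ratios of both sites were lower in both THZ1 libraries. Anchors of the 2 largest sites overlapped MCM4 and PRKDC (THZ1 replicate 2) and UBE2V2 (THZ1 replicate 1), genes of DNA replication, DNA end joining and ubiquitin transfer. The anchor over UBE2V2 was 25 kb wide. Vehicle replicate 2 called the same site (ratio 10.8) with a 5 kb anchor inside that stretch, which overlapped no protein-coding gene.

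ZEB1 (chr10:31607424-31818742, plus strand) encodes a zinc finger repressor of epithelial genes. It had 6 and 11 loops with vehicle and 5 in each THZ1 library. Of its 27 calls, 14 had an anchor in the 25 kb bin that holds the gene start, and 10 had the far anchor in a bin at chr10:31050001-31075000, which overlaps no protein-coding gene at the anchors used. Of 13 sites, 3 were called in all 4 libraries, and 7 were called in 1 vehicle library and in no THZ1 library, 6 of them in vehicle replicate 2. Without vehicle replicate 2, the difference of the means (THZ1 minus vehicle) was -1 loop in place of -3.5.

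The ZEB1 loop of 285 kb linked the gene start to ZNF438, another zinc finger gene. Its ratio was 6.05 and 10.6 with vehicle, against 7.07 and 6.68 with THZ1, and the groups overlapped. The 535 kb loop from the gene start was called at 5 kb width with a ratio of 9.57 and 12.1 with vehicle and 6.01 in THZ1 replicate 1. In THZ1 replicate 2 it was called at 10 kb width, where ratios are not comparable with those at 5 kb. A 300 kb site from the ZEB1 body to ARHGAP12 was called in vehicle replicate 2 (63 contacts, ratio 2.24) and in both THZ1 libraries (121 and 102 contacts, 2.85 and 2.44), all at 25 kb width. It was the only site at the 9 genes called in more THZ1 than vehicle libraries with both THZ1 libraries among them.

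ZEB2 (chr2:145121931-145278624, minus strand) encodes the relative of ZEB1. It had 2 loops in each vehicle library and none in the THZ1 libraries. A 60 kb loop between GTDC1, a glycosyltransferase gene, and the ZEB2 body was called in both vehicle libraries with 17 and 18 contacts (ratio 4.03 and 4.35). Each of the other 2 sites was called in a single vehicle library, with 14 and 15 contacts. An uncalled loop says that the caller's thresholds were not passed and not that contact was absent.

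TWIST1 (chr7:19060614-19157259, minus strand) encodes a basic helix-loop-helix factor. It had 3 loops in each vehicle library and 3 and 4 with THZ1. The annotation used gives TWIST1 a 96.6 kb body, and the window also holds HDAC9, a histone deacetylase gene. Counted within 20 kb of the gene start alone, the libraries had 2, 2, 3 and 2 loops. The sites of 320 to 325 kb and 530 to 550 kb, both between the gene start and anchors without a protein-coding gene, were called in all 4 libraries. A site of 120 and 130 kb with its far anchor in HDAC9 was called in both vehicle libraries only (ratio 2.83 and 2.81).

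VIM (chr10:17270240-17279592, plus strand) encodes vimentin, the intermediate filament of mesenchymal cells. It had 4 and 5 loops with vehicle and 2 and 5 with THZ1. Of its 16 calls, 15 had the far anchor in CUBN, the gene for the endocytic receptor cubilin, and the other was a 280 kb loop to a stretch without a protein-coding gene in THZ1 replicate 2. The sites of 410 to 425 kb and 190 kb were called in all 4 libraries. The larger had a ratio of 8.42 and 7.41 with vehicle, against 5.79 and 6.48 with THZ1, lower in both THZ1 libraries. Its left anchor started at 16870001 in vehicle replicate 1 and at 16885001 in the other libraries. Its contacts were 33 and 43 with vehicle, against 3.92 and 5.8 expected. With THZ1 they were 40 and 44, against 6.91 and 6.79 expected. The 190 kb site was called at 5 kb width with vehicle and at 10 kb width with THZ1, so its strength was not compared. The 155 to 170 kb and 100 to 120 kb sites were called in every library except THZ1 replicate 1.

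CDH2 (chr18:25512843-25757910, minus strand) encodes N-cadherin. It had 8 and 9 loops with vehicle and 5 and 2 with THZ1, the largest difference of the means among the 9 genes (-5 loops). Of 24 calls, 17 had an anchor inside the gene in the bin chr18:25675001-25700000, 6 in each vehicle library and 4 and 1 with THZ1. No CDH2 loop of the vehicle libraries had an anchor within 5 kb of the gene start, and 1 in each THZ1 library had. The call in THZ1 replicate 1, with an anchor at 25760001, had a donut FDR of 0.0592. It was joined to a site whose vehicle calls had that anchor at 25780001, more than 20 kb from the gene start. The call in THZ1 replicate 2 had 25 kb anchors and a ratio of 2.1. No far anchor overlapped another protein-coding gene.

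The CDH2 loop of 270 kb from chr18:25420001-25425000 to chr18:25690001-25695000 was called in all 4 libraries with the same anchors. Its contacts were 27 and 40 with vehicle, against 3.19 and 2.79 expected, and 25 and 24 with THZ1, against 4.17 and 3.58 expected. The ratio was thus 8.48 and 14.3 with vehicle, against 5.99 and 6.7 with THZ1, lower in both THZ1 libraries. Sites of 80 kb (ratio 4.43 and 3.9) and of 100 and 105 kb were called in both vehicle libraries only. A site of 1040 to 1050 kb was called in every library except THZ1 replicate 2, with 19, 14 and 18 contacts.

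FN1 (chr2:216225163-216300796, minus strand) encodes fibronectin, a protein of the extracellular matrix. It had 4 and 3 loops with vehicle and 2 in each THZ1 library, and 9 of its 11 calls had an anchor in the 25 kb bin that holds the gene start. The FN1 window also holds part of ATIC. A 575 kb loop in vehicle replicate 1 had its window anchor on ATIC and not on the FN1 body. The site of 465 to 480 kb upstream was called in all 4 libraries. At 5 kb width its ratio was 6.83 in vehicle replicate 1 and 8.72 and 11.4 with THZ1. These calls did not have identical anchors, so the ratios came from different pixels. Vehicle replicate 2 had it at 25 kb width only. A 90 kb site at the gene start was called in both vehicle libraries only. The largest loop at the 9 genes was at FN1, 2175 kb in size, in vehicle replicate 1 with 20 contacts against 3.64 expected.

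CDH1 (chr16:68771195-68869440, plus strand), the epithelial counterpart, had 6 loops in each vehicle library and 3 in each THZ1 library. Its window holds parts of CDH3, the neighboring gene for P-cadherin, and of TANGO6, and 9 of 18 calls had their anchor in the 25 kb bin downstream of the gene that overlaps TANGO6. That bin lies past the end of CDH1, away from its promoter. Only 1 loop in each vehicle library had an anchor within 5 kb of the CDH1 start, a site of 40 and 50 kb called in both vehicle libraries only (ratio 2.82 and 3.85). A 45 kb loop from the CDH1 body to the TANGO6 bin was also called in both vehicle libraries only, with 22 and 24 contacts (ratio 3.73 and 3.6).

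The CDH1 site to CDH3 of 80 to 90 kb was called in all 4 libraries, at 5 kb width with vehicle (ratio 5.93 and 5.29) and at 10 kb width with THZ1 (2.41 and 3.6). The 135 kb loop from CDH3 to the TANGO6 bin had 26 and 37 contacts with vehicle and 22 in THZ1 replicate 1 (7.49, 9.54 and 5.76) and was not called in THZ1 replicate 2. The loop with convergent CTCF letters, 315 kb from ZFP90, a zinc finger gene, to the TANGO6 bin, was called in vehicle replicate 2 (17 contacts, ratio 12.7) and THZ1 replicate 2 (16 contacts, ratio 7.47). Each THZ1 library also had a loop from the TANGO6 bin away from CDH1, of 280 kb to CHTF8 and DERPC in replicate 1 and of 425 kb to SNTB2 in replicate 2.

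Loops were fewer with THZ1 both at the mesenchymal genes and at CDH1. Loops at the 8 mesenchymal genes numbered 38 and 45 with vehicle, against 24 and 27 with THZ1, or 1.63-fold fewer, and those at CDH1 were 2-fold fewer. The difference between these log2 changes, with 1 added to each number, was 0.13, with p = 0.667 in the exact two-sided permutation test. The test was on the log2 ratio of mesenchymal to CDH1 loops, which was 2.48 and 2.72 with vehicle, against 2.64 and 2.81 with THZ1. The size and direction of this difference depended on the settings. It was 0.60 without the 20 kb extension, 0.54 with 5 kb anchors alone, 0.25 with an extension of 50 kb and -1.37 with 10 kb anchors alone. In each of these settings the groups did not overlap (p = 0.333, exact two-sided permutation test, the smallest possible).

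Further genes of EMT gave the same comparison on longer lists. A list of 20 mesenchymal genes outside the 9, of which 19 had loops, held 86 and 92 loops with vehicle and 68 and 63 with THZ1. A list of 18 epithelial genes held 58 and 66 with vehicle, against 46 and 44 with THZ1, and it includes CDH3, whose window shares loops with that of CDH1. In each list 6 genes (of the 19 and of the 18) were lower without overlap and none was higher, beside the 28.9% of all genes given above. Genes without overlap whose means differed by at least 3 loops were TGFB2, which encodes a TGFβ ligand (13 and 13 loops with vehicle, 10 and 9 with THZ1), SMAD3, a signal transducer gene (8 and 8, then 4 and 4), and TGFBR2, a receptor gene (5 and 9, then 4 and 4). The difference at TGFBR2 rested on vehicle replicate 2, since the other vehicle library held 5 loops.

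Of the 70 sites, 16 were called in all 4 libraries (26.1% of all sites of the series were), 10 in both vehicle libraries only (9.67% of all sites) and none in both THZ1 libraries only (2.24% of all sites). The 10 were spread over 5 of the mesenchymal genes and CDH1: 3 at SNAI1, 2 each at CDH2 and CDH1, and 1 each at ZEB2, TWIST1 and FN1. A further 20 sites were called in a single vehicle library and 9 in a single THZ1 library.

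**Figure D3:**
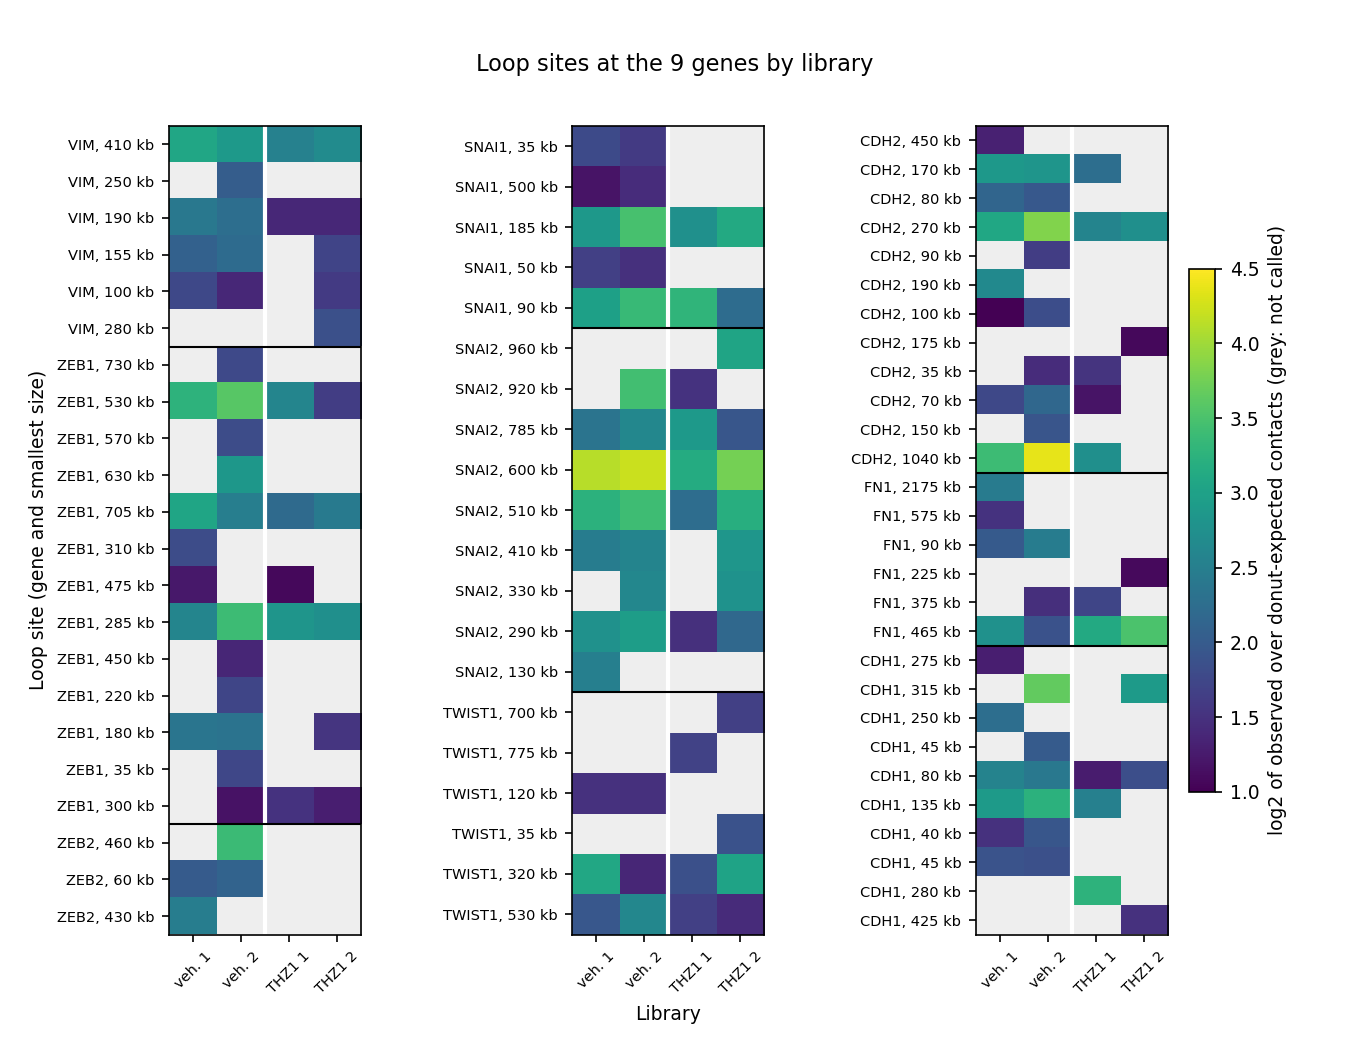
Each row is a loop site, named by gene and smallest size in kb, and each column a library. Color gives the log2 ratio of observed to donut-expected contacts, and grey marks sites not called. The 16 rows filled in all 4 columns include 4 at SNAI2, and the 10 rows filled in the vehicle columns only include 3 at SNAI1.

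Loops at the 9 genes had a larger median size than all loops in every library, and it was larger in both THZ1 libraries. The median size was 260 and 250 kb with vehicle and 320 and 307.5 kb with THZ1 (p = 0.333, exact two-sided permutation test, n = 2 per condition), while the median over all loops was 140 kb in both vehicle lists and 200 kb in both THZ1 lists. Loops of 90 kb or less, the size range the study calls subloops, numbered 9 and 14 with vehicle, against 4 and 2 with THZ1. They made up 20.5% and 27.5% of the vehicle loops and 14.8% and 6.67% of the THZ1 loops (p = 0.333, exact two-sided permutation test), and over all loops 37.3% and 36.8% of the vehicle and 26.2% and 25.5% of the THZ1 calls.

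The gap between conditions was widest among small loops. The log2 change of the mean number was -1.94 for loops of 90 kb or less, -1 for those over 90 to 200 kb, -0.38 for those over 200 to 500 kb and -0.23 for larger ones. Over all loops of the series, the changes in these size classes were -0.99, -0.52, -0.23 and 0.19. CDH1 had 3 and 4 small loops with vehicle and 1 in each THZ1 library, SNAI1 had 2 and 3 and then 1 and 0, and CDH2 had 2 and 4 and then 2 and 0. The smallest size was 35 kb, with 5 calls: 1 in each vehicle library at SNAI1, 1 each at ZEB1 and CDH2 in vehicle replicate 2, and 1 at TWIST1 in THZ1 replicate 2. With 10 kb or 25 kb anchors alone, each library held 10 or fewer loops, and the median size was not higher with THZ1.

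**Figure D4:**
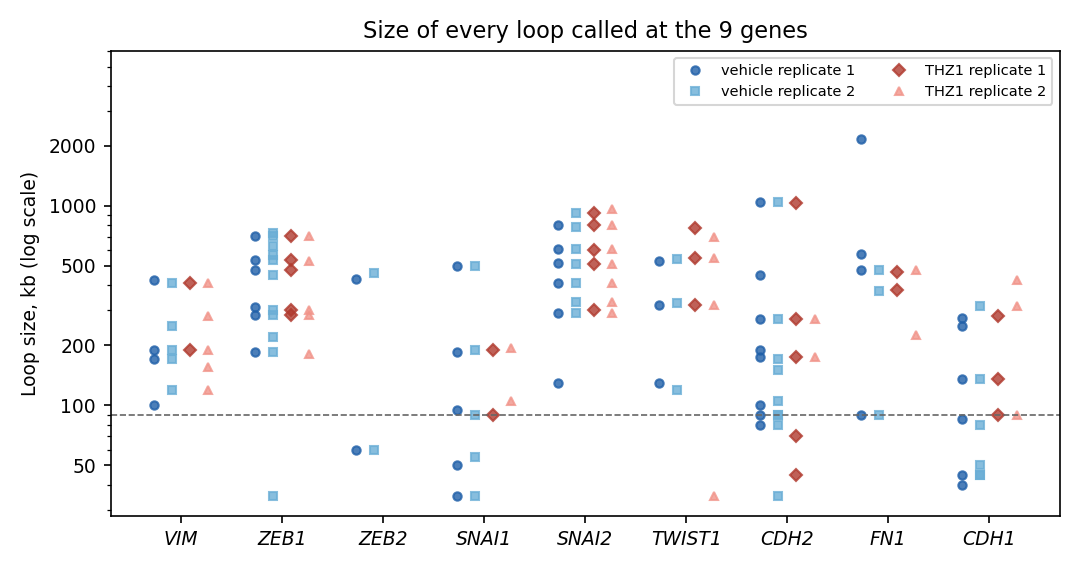
Size of every loop in kb (y axis, log scale) at each gene, with 1 column of points per library and a dashed line at 90 kb. Below or at the line lie 9 and 14 vehicle loops and 4 and 2 THZ1 loops. VIM and SNAI2 have none there.

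Anchors near gene starts differed by gene more than by condition. Of the loops at the 9 genes, 45.5% and 47.1% with vehicle and 48.1% and 63.3% with THZ1 had an anchor within 5 kb of the start of their gene (p = 0.333, exact two-sided permutation test). Over all pairs of a gene and a loop, this share was 38.5% and 38.8% with vehicle and 34.9% and 35.1% with THZ1. At the 9 genes the share ran from all loops at SNAI2 to 1 of 6 at CDH1 and none at CDH2 in each vehicle library. A longer body gives a wider window, and bodies measured 4.1 kb at SNAI2, 98.2 kb at CDH1 and 245.1 kb at CDH2. ZEB1, with a body of 211.3 kb, had shares of 66.7% and 45.5% with vehicle. The part of gene length in these shares was not tested. A protein-coding gene overlapped the far anchor in 50 of the 152 calls, among them 15 of 16 at VIM, 13 of 18 at CDH1 and none of 24 at CDH2 or 11 at FN1. Calls with both anchors in the window, 4 and 6 with vehicle and 2 and 1 with THZ1, have no far anchor. They stayed in these totals and were counted as without a gene, among them both calls of the 45 kb loop from CDH1 to TANGO6.

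Strength was tested where libraries called the loop with identical anchors, so that the same pixel was counted. Of 2623 such loops in the series, 3 lay at the 9 genes, and 1 of these was weaker with THZ1, the CDH2 loop of 270 kb. Over all loops tested, 24.7% were weaker and 0.0762% stronger. The log2 change of the CDH2 loop was -0.82 ± 0.27 (SE), and its p after Benjamini-Hochberg adjustment was 0.0392 (quasi-likelihood test of edgeR). The median log2 change of all loops tested was -0.41. Under TMM scaling without expected counts, 114 loops were weaker and 73 stronger, the median change was -0.0047, and the changes were -0.43 at the CDH2 loop (adjusted p = 0.358, edgeR) and 0.11 at the ZEB1 loop of 705 kb. The ZEB1 loops of 705 and 285 kb had log2 changes of -0.46 (adjusted p = 0.174, edgeR) and -0.30 (adjusted p = 0.352, edgeR). The CDH2 change was -0.42 without vehicle replicate 2 and -1.18 without vehicle replicate 1. Fits without 1 library called none of the 2623 loops weaker, so the absence of a CDH2 call there says nothing about this loop. With the other expected counts it was not called (adjusted p = 0.0561 with the bottom-left one, edgeR).

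A wider set took sites joined within 20 kb and called at the same anchor width in all 4 libraries. This set had 8 sites at the 9 genes, all at 5 kb width, and 5 of them were lower in both THZ1 libraries than in either vehicle library: 1 each at VIM, ZEB1 and CDH2 and 2 at SNAI2. This held for 59.8% of the 5102 such sites of the series. In limma's moderated test on the log2 ratio no site passed an adjusted p of 0.05, at the 9 genes or elsewhere (0% of all sites), while 2 of the 8 and 1609 of all sites had an unadjusted p under 0.05. The difference of the mean log2 ratios was -0.80 ± 0.27 (SE) at the CDH2 site, -0.71 ± 0.25 at the 600 to 605 kb site of SNAI2, and between -0.22 and -0.61 at the other 6.

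**Figure D5:**
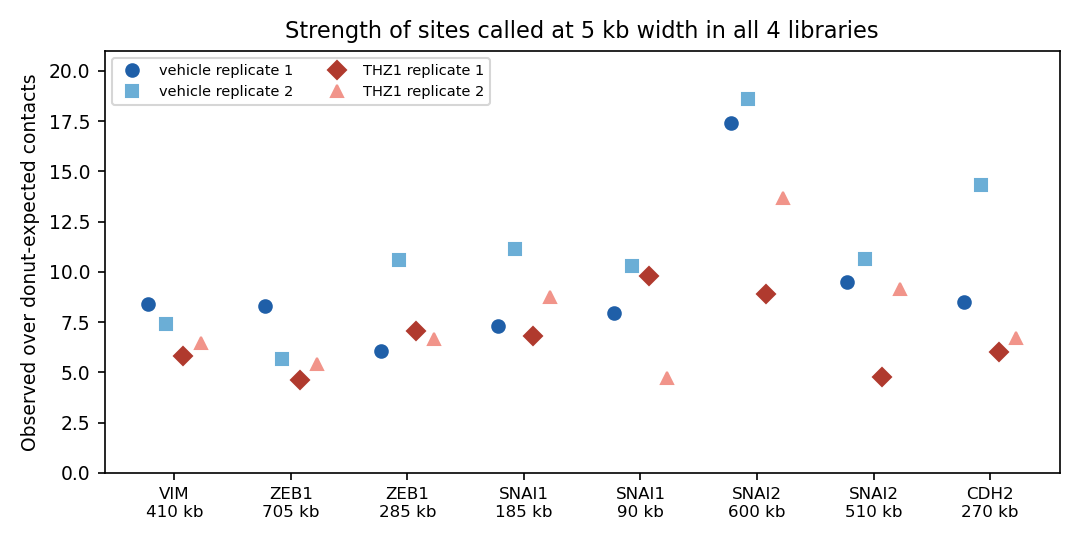
Observed over donut-expected contacts (y axis) in each library for the 8 sites called at 5 kb width in all 4 libraries, named by gene and smallest size. The THZ1 libraries lie below both vehicle libraries at the sites of VIM, SNAI2 and CDH2 and at the 705 kb site of ZEB1, and overlap them at both SNAI1 sites and the 285 kb site of ZEB1.

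Contact domains, the blocks of self-contact that Arrowhead calls on a 10 kb grid, covered the gene starts of ZEB1, SNAI2 and CDH2 in all 4 libraries. At CDH2 the domain measured 630 and 610 kb with vehicle and 670 and 620 kb with THZ1, and at SNAI2 670 and 860 kb with vehicle and 650 kb in each THZ1 library. The VIM start lay in a domain of 420 to 430 kb in 3 libraries, with none called in vehicle replicate 1. The SNAI1 start lay in a domain of 130 kb in vehicle replicate 1, in none in vehicle replicate 2, and in domains of 240 and 230 kb with THZ1. For TWIST1 a domain of 1080 to 1090 kb was called in every library except THZ1 replicate 2. A domain over the CDH1 start, 260 kb in size, was called in THZ1 replicate 1 alone, and no library had one over the starts of ZEB2 or FN1.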

How the data were processed

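MDA-MB-231 cells (vehicle or 75 nM THZ1, labeled 48 h) gave 2 Arima-HiC libraries per condition. Reads were processed by the authors with Juicer 1.6 on hg19, per the labels, and the deposited lists name juicer_tools 1.19.02. HiCCUPS and Arrowhead settings are not given in the sources used here. In the loop lists deposited by the authors, the observed values are raw contact counts of the brightest pixel of a loop. The expected values deposited beside them are a signal in the same unit, from 4 neighborhoods (donut, bottom-left, horizontal and vertical), and the deposited FDR values are q-values. The deposited domain lists hold Arrowhead's corner score. The authors' tables of unique loops hold pooled counts. Replicates were not pooled in the other lists.

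Loops were read with Python 3.11.15, pandas 2.3.3 and scipy 1.17.1. Gene bodies came from GENCODE 44 lifted to GRCh37 (protein-coding only), and all 61322 anchors lay within the chromosome ends of that build. Loop size was the distance between anchor starts. Ratios were compared only at the same anchor width (5, 10 or 25 kb). Strength was tested with edgeR 4.0.16 in R 4.3.3 (quasi-likelihood test, offset: logarithm of the donut expectation) on all 2623 loops with identical anchors and an expected count above 0, and with limma 3.58.1 on 5102 joined sites, at an adjusted p of 0.05. DESeq2 1.42.0 was an alternative. Values per library were compared by exact two-sided permutation. Scripts were tested on simulated data. The lists hold no depth per library. Contacts at called loops summed to between 551436 and 762701 per library, which depends on how many loops were called, and to between 1065 and 1651 at the 9 genes.

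Per gene, up to 3 sites called in the most libraries were to be named, with every site in both libraries of 1 condition only, every loop past the threshold, and the largest and smallest loop. Other sites described were chosen after their values were seen. Genes of the longer lists were named when their ranges did not overlap and the means differed by at least 3 loops. The 9 genes, the lists and the tests were chosen with earlier results of these data known. Alternatives changed the window, the FDR, the anchor width, the joining distance, the expected count, the tool and the libraries used.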

Additional observations from a re-analysis of the deposited data

How the results depend on the processing

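The mean number of loops at the 9 genes was lower with THZ1 under all 12 alternatives. The log2 changes lay between -0.89 (5 kb anchors alone) and -0.12 (25 kb anchors alone). With 25 kb anchors the vehicle libraries held 7 and 6 loops and each THZ1 library 6, so vehicle replicate 2 did not differ from the THZ1 libraries. Leaving out 1 library gave -0.84 to -0.63, and counting only loops within 20 kb of the gene start, an alternative chosen after seeing the data, gave -0.52. Leaving out 1 library gave a difference in median size of 52.5 to 65 kb, a difference in the share of small loops of -17.3 to -9.14 percentage points, and a mesenchymal minus CDH1 difference of 0.0094 to 0.25. Other windows and 5 kb anchors raised the last to between 0.25 and 0.60. With 10 kb anchors alone, these 3 differences turned direction (-12.5 kb, 2.78 points and -1.37), and with 25 kb anchors they were -6.25 kb, 0 points and -0.11. Of the 9 genes, 2 to 8 were lower without overlap under these alternatives (2 with 10 kb and with 25 kb anchors, 8 without THZ1 replicate 2), and at most 1 was higher. The CDH1 difference, 3 loops fewer with THZ1, was 0.5 loops more with 10 kb anchors. These subsets held 5 to 10 loops per library, and the cause was not tested.

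Sites in both vehicle libraries only numbered 3 with 10 kb anchors and 1 with 25 kb anchors, in place of 10. Leaving out 1 vehicle library, which drops the need for a second vehicle call, gave 21 and 20. Leaving out 1 THZ1 library, which drops the need for absence from that library, gave 14 each time. Sites in both THZ1 libraries only, none in the report, numbered 1 with an extension of 50 kb, 2 with 10 kb anchors, 1 with 25 kb anchors, 1 when sites were joined within 50 kb, and 0 to 7 without 1 library.

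The single loop past the threshold for strength, at CDH2, became 0 with the bottom-left, horizontal or vertical expected count (adjusted p = 0.0561, 0.252 and 0.179, edgeR), with TMM and no expected count (0.358), with limma on joined sites (0.101), and with DESeq2, which gave its adjusted p as NA. It was 0 to 0 without 1 library, where no loop of the series was called weaker. Over its edgeR alternatives the adjusted p ran from 0.0137 to 0.449. Over all loops, calls of weaker loops numbered 604, 48 and 59 with the other expected counts, 17 with DESeq2, 0 without any 1 library, and 114 with TMM, beside 73 stronger. TMM moved the median log2 change from -0.41 to -0.0047 and 2 of the 3 loops at the 9 genes stayed lower. Requiring all 4 expected counts above 0, chosen after seeing the data, gave 721. The libraries share replicate numbers, but the deviations of same-numbered libraries had a correlation of -0.0088 over 2623 loops and the numbers were not taken as pairs. With the replicate block the CDH2 loop stayed past the threshold (adjusted p = 0.0137) and 749 loops were weaker. The paired log2 change in loop number was -0.74, and the paired differences in size, share and mesenchymal minus CDH1 were 58.8 kb, -13.2 points and 0.13. The depth of each library was not given, and its part in the number of calls was not tested.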
